A study of Mus musculus with 6 samples.

Results

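The genes described here are 10 genes known for their expression in endothelium, the cells that line blood vessels, whose RNA was counted here in bulk libraries of blood stem cells sorted from mice. They were found by symbol among the 49585 gene rows of 6 libraries, and all 10 had a row. The list was chosen by a measured value, the difference of Ramp2 between populations, so for Ramp2 that difference is described without a test; the other 9 were listed for their role in vessels. In both groups the source was bone marrow of C57BL/6 mice, aged 8 to 16 weeks and given no treatment. Stem cells were sorted from lineage-negative marrow as cells positive for Kit, Sca-1, CD150 and CD201 and negative for CD48 and CD34, then divided into a CD38-high gate, labelled CD38 pos (n = 3 libraries), and a CD38-low gate, labelled CD38 neg (n = 3). Each library pools the cells of 10 mice, and the study sets each CD38 pos library beside 1 CD38 neg library, giving 3 pairs. P-values measure the spread between these samples, and whether paired libraries share mice is not stated.

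Endothelium and blood share an embryonic origin, and adult stem cells keep part of the vascular programme. Tek (the receptor Tie2) and its co-receptor Tie1 belong to the angiopoietin system, which steadies resting vessels and is known for holding stem cells quiescent. Kdr and Flt1 are the receptors for vascular endothelial growth factor. Ramp2 is a small membrane protein that turns the receptor Calcrl into a receptor for adrenomedullin, a peptide needed for vessel integrity, whereas Ramp1 with the same Calcrl makes a receptor for the neuropeptide CGRP. The members were accordingly divided, from general knowledge, into 4 strictly endothelial genes (Cdh5, Kdr, Flt1 and Plvap), 5 genes that stem cells also express (Tek, Tie1, Pecam1, Emcn and Egfl7), and Ramp2, which was kept apart.

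Sequences are given for members of both classes, to set the regulatory letters beside the expression levels that follow. RefSeq promoters (build GRCm38.p6) were held for 6 of the 10 members and not for Ramp2, Cdh5, Plvap and Pecam1. The 250 bases before the start are printed for 2 strictly endothelial and 2 shared genes, 5′ to 3′ on the gene's strand. Capitals mark matches on either strand to a form of the ETS factor site, AGGAAG. They also mark a form of the E-box, written CAGNTG. The GATA factor form AGATAA was searched in the same way, and no printed promoter holds more than 1 kind of match, so matches of different kinds do not overlap. Flt1 lies on the minus strand at chr5:147726012-147726261, Kdr on the minus strand at chr5:75978456-75978705, Emcn on the plus strand at chr3:137340828-137341077 and Tek on the plus strand at chr4:94739039-94739288.
Flt1: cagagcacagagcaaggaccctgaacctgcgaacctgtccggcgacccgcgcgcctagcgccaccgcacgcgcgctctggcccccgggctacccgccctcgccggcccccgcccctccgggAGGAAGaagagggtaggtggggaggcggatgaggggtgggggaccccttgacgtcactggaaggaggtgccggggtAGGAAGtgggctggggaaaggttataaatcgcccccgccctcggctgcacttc
Kdr: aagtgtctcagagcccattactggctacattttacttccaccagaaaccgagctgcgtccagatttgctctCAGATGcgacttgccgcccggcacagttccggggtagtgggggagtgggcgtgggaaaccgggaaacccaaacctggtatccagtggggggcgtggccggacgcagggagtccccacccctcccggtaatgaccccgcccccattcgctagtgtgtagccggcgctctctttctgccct
Emcn: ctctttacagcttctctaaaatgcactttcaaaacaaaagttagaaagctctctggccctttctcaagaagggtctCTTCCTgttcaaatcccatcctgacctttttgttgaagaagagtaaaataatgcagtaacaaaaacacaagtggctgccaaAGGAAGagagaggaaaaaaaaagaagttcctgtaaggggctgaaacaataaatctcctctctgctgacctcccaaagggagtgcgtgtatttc
Tek: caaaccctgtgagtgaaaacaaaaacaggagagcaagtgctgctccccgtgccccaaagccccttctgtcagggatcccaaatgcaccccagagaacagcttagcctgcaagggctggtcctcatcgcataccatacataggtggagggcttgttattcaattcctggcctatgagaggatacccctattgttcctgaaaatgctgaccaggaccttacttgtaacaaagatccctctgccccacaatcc

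The ETS letters occurred 2 times before Flt1 and 2 times before Emcn, and 0 times before Kdr and Tek, so 1 of the 2 printed promoters of each class held them. They are present in 29.5% of all 32851 promoters of the same length. In the 4 printed promoters the E-box letters occurred once, before Kdr, against 44.8% of all promoters that hold them, and the GATA letters in none against 9.99%. Promoters of the shared genes Tie1 and Egfl7 are not printed. Tie1 held 1 ETS and 1 E-box match. Egfl7 held 3, 1 and 0 ETS and 1, 0 and 1 E-box matches before its different starts. The likeness of the classes thus holds for the printed promoters only. These are matches of letters in a short window only. One further sequence belongs to the set: Egfl7, a secreted vessel guidance protein, contains the microRNA gene Mir126a, which is known as a regulator of stem cell quiescence. Its mature RNA (chr2:26591402-26591423, plus strand, GRCm38.p6) is shown with the seed, bases 2 to 8, in capitals.
mmu-miR-126a-3p: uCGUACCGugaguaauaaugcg
The Mir126a row had 0 reads in all 6 libraries, and all of its 73 bases are also annotated as exon of Egfl7, so reads of the 2 genes cannot be told apart there and the mature RNA was not measured.

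The libraries held 16771180 to 18558610 gene counts each, so 3 reads correspond to 0.165 to 0.183 CPM, the read count scaled to a common library size (TMM). Procr, which encodes the sorted CD201, had a mean over all libraries of 25.4 CPM per kb of exon. Neutrophil genes were far more abundant: S100a8 alone had a mean of 61261 CPM per kb. The list of 10 to which it belongs summed to between 70773 and 160519 CPM, not scaled by length. Across all 14785 genes tested, 2 (0.0135%) had an adjusted p-value under 0.05 by edgeR's quasi-likelihood method with the pair as a term. Of the 8 tested members other than Ramp2, for which no test is given, none was among them (1 of 8 had an unadjusted p under 0.05). Cdh5 did not pass the filter on low counts, which asked for about 0.584 CPM in at least 3 libraries. Flt1 passed it through 3 CD38 pos libraries and 1 CD38 neg library, and Kdr through 3 and 2.

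Per length, each shared member had a higher mean level than any strictly endothelial one. The shared genes had means over the 6 libraries of 15.1 ± 2.63 CPM per kb for Egfl7, 11.4 ± 5.01 for Tie1, 9.02 ± 1.30 for Pecam1, 7.81 ± 3.53 for Tek and 4.31 ± 1.56 for Emcn (SD, n = 6). The strictly endothelial genes were lower, at 1.35 ± 1.05 CPM per kb for Plvap, 0.243 ± 0.145 for Kdr, 0.115 ± 0.0780 for Flt1 and 0.0691 ± 0.0587 for Cdh5 (SD, n = 6). Ramp2, at 0.832 ± 0.707 CPM per kb (SD, n = 6), ranked between Plvap and Kdr, above 20.1% of all tested genes. Neighbours in this order were rarely separate: in the 6 libraries together every gene's range overlapped that of the next, including Emcn (lowest 2.71) and Plvap (highest 2.84). Within libraries, Tek was above Emcn and Flt1 above Cdh5 in 6 of 6, and the remaining neighbours kept their order in 4 or 5 of 6.

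**Figure D1:**
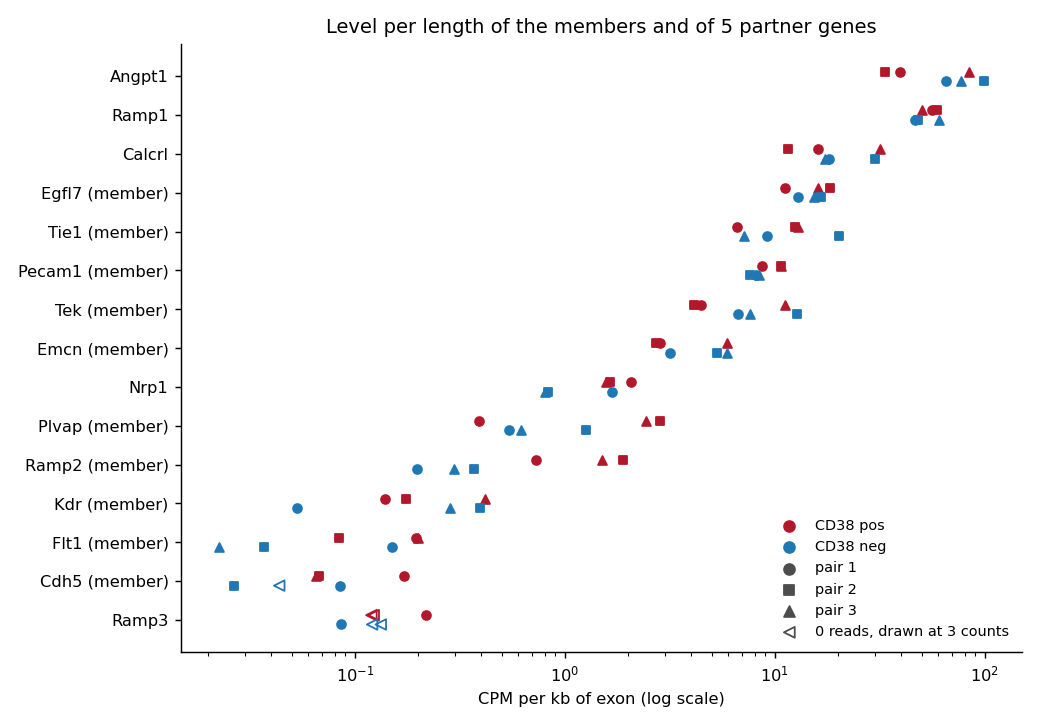
Level of the 10 members and 5 partner genes in CPM per kb of exon (log axis), 1 point per library, coloured by population and shaped by pair; open triangles are libraries with 0 reads, drawn at 3 counts. Egfl7 to Emcn lie between 2.71 and 20.1, while Cdh5 and Flt1 reach at most 0.200.

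Ramp2 (ENSMUSG00000001240, GRCm38 chromosome 11, 101246028 to 101259546, plus strand) had 40, 111 and 90 reads in the CD38 pos libraries of pairs 1, 2 and 3, and 11, 22 and 16 reads in their CD38 neg partners. In CPM these were 2.39, 6.27 and 4.96 against 0.654, 1.22 and 0.977. Every CD38 pos library was above every CD38 neg library. The means were 4.54 ± 1.97 and 0.950 ± 0.284 CPM (SD, n = 3 each), a ratio of 4.78, and the fitted log2 fold change was 2.20 (SE 0.40). The paired log2 differences were 1.71, 2.26 and 2.22.

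The annotation limits what Ramp2 reads stand for. One annotated Ramp2 transcript runs on into the neighbouring gene Vps25, which encodes a subunit of the endosomal sorting machinery, and 1103 exon bases are shared on the same strand. Vps25 itself, with 67.2% of its exon shared, had only 4 to 11 reads in a library: 8, 4 and 11 in CD38 pos and 7, 11 and 4 in CD38 neg. How reads in shared exons were treated is not given in the sources used here. Over the 2198 exon bases of Ramp2 that no other gene shares, its mean level would be 1.25 CPM per kb.

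For its partners no such separation of the populations was seen. Ramp1 had 2825, 3149 and 2755 reads in CD38 pos and 2367, 2617 and 2991 in CD38 neg libraries, with a log2 fold change of 0.10 (SE 0.20, adjusted p = 0.966 in edgeR). Per kb of exon, shared bases included, Ramp1 exceeded Ramp2 by 31.0 to 77.1 times in the CD38 pos and by 130 to 235 times in the CD38 neg libraries. Over the unshared bases of Ramp2 alone these ratios would be lower. Calcrl, the receptor that both serve, had 1302, 999 and 2808 reads against 1486, 2626 and 1380, and its sign differed between pairs (log2 fold change -0.22, SE 0.32, adjusted p = 0.955 in edgeR). Ramp3 had 5 and 2 reads in the libraries of pair 1 and 0 in the other 4. Of the peptide ligands, Adm had 1 read in all libraries together, Calca 3 and Calcb 1, and Adm2 and the calcitonin receptor gene Calcr had 0. Receptor and Ramp1 were detected in every library, and each ligand had at most 3 reads in all.

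Among strictly endothelial members, Flt1 and Cdh5 had more reads in CD38 pos in all 3 pairs. Cdh5 (chromosome 8, 104101625 to 104144511, plus strand), which encodes the junction protein VE-cadherin, a defining marker of endothelium, had 12, 5 and 5 reads in CD38 pos and 6, 2 and 0 in CD38 neg libraries. That is 0.425 ± 0.254 against 0.156 ± 0.183 CPM (SD, n = 3 each), 30 reads in all, with overlapping populations and too few reads for the test. Flt1 (chromosome 5, 147561604 to 147726011, minus strand) had 44, 20 and 49 reads against 34, 9 and 5, and its populations overlapped, since the CD38 neg library of pair 1 was above the CD38 pos library of pair 2. Its log2 fold change was 1.41 (SE 0.57, adjusted p = 0.925 in edgeR), and its paired differences ran from 0.36 to 2.74. Without pair 1 its log2 fold change was 2.11, and without pair 3 it was 0.71.

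Plvap (chromosome 8, 71497765 to 71511752, minus strand), a component of the diaphragms of permeable vessels such as marrow sinusoids, had 13, 100 and 88 reads in CD38 pos and 18, 45 and 20 in CD38 neg libraries. It was higher in CD38 pos in pairs 2 and 3 and lower in pair 1, by -0.41 on the log2 scale (log2 fold change over all pairs 1.01, SE 0.48, adjusted p = 0.926 in edgeR); without pair 1 that value was 1.56, and without pair 3 it was 0.51. Kdr (chromosome 5, 75932827 to 75978458, minus strand) had 21, 28 and 68 reads against 8, 64 and 42, with means of 2.19 ± 1.35 and 2.20 ± 1.57 CPM (SD, n = 3 each). Its paired differences of 1.21, -1.11 and 0.53 pointed both ways, and the log2 fold change was 0.16 (SE 0.51, adjusted p = 0.978 in edgeR). Its fitted value turned with the pair left out, from -0.29 without pair 1 to 0.87 without pair 2.

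The 4 strictly endothelial members together summed to 5.39, 8.64 and 11.6 CPM in CD38 pos and 3.92, 6.66 and 4.09 CPM in CD38 neg libraries. The sum was higher in CD38 pos in each pair, though the populations overlapped. The mitochondrial share of reads, a sign of RNA quality, also differed within pairs, at 4.28, 1.44 and 2.69% in CD38 pos and 3.68, 3.74 and 4.43% in CD38 neg libraries, with the CD38 pos library of pair 2 lowest. Its part in these differences was not tested. None of the 4 was at 0 throughout; the single 0 was that of Cdh5 in the CD38 neg library of pair 3. In these bulk samples, fewer cells of a type and less RNA per cell cannot be told apart.

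**Figure D2:**
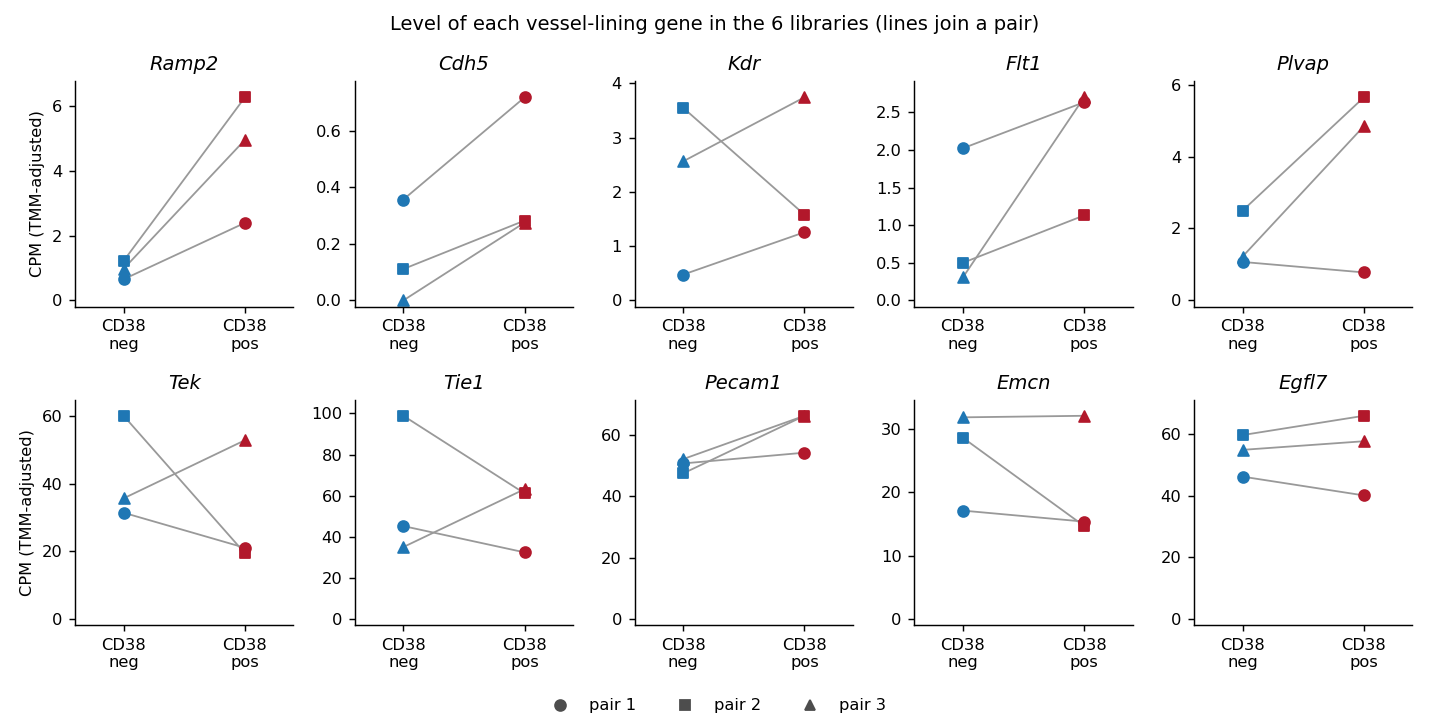
CPM of each member (vertical axis from 0, scaled per gene) in CD38 neg (blue) and CD38 pos (red) libraries, with lines joining the 3 pairs. Ramp2 and Pecam1 are higher in CD38 pos in all 3 pairs without overlap, and Cdh5 and Flt1 in all 3 pairs with overlap. Kdr, Plvap, Tek, Tie1, Emcn and Egfl7 rise in some pairs and fall in others.

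The genes shared with stem cells showed no common direction. Tek (chromosome 4, 94739289 to 94874976, plus strand) had 352, 344 and 961 reads in CD38 pos and 529, 1084 and 585 in CD38 neg libraries, so it was lower in pairs 1 and 2 and higher in pair 3 (log2 fold change -0.54, SE 0.32, adjusted p = 0.926 in edgeR). Tie1 (chromosome 4, 118471191 to 118490061, minus strand) had the same signs, with 541, 1081 and 1147 reads against 760, 1781 and 573 and a log2 fold change of -0.12 (SE 0.27, adjusted p = 0.967 in edgeR). Emcn (chromosome 3, 137341067 to 137432185, plus strand), the sialomucin endomucin, had 257, 260 and 583 reads against 288, 516 and 522, pair by pair -0.15, -0.96 and 0.01 (log2 fold change -0.37, SE 0.25, adjusted p = 0.930 in edgeR). For these 3 genes the populations overlapped, and pair 2 held the largest difference of Tek and Emcn. Without pair 2 the log2 fold change of Tek was -0.01, and without pair 3 it was -1.11.

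Pecam1 (chromosome 11, 106654217 to 106750628, minus strand), the adhesion molecule CD31, had 54.2, 66.3 and 66.3 CPM in CD38 pos and 50.7, 47.5 and 52.1 CPM in CD38 neg libraries, which did not overlap. The log2 fold change was small, 0.31 (SE 0.19, adjusted p = 0.929 in edgeR), and the 3 pairs differed by 0.10, 0.48 and 0.35. Egfl7 (chromosome 2, 26580014 to 26593120, plus strand) had 669, 1166 and 1046 reads against 776, 1074 and 898 and a log2 fold change of 0.00 (SE 0.19, adjusted p = 0.998 in edgeR). Its exons overlap those of Agpat2 by 64 bases and of Gm20532 by 264 bases; Agpat2 had 989 to 2166 reads per library and Gm20532 had 0. Summed, the 5 shared members took 163, 227 and 272 CPM in CD38 pos and 191, 295 and 209 CPM in CD38 neg libraries, higher in CD38 pos in pair 3 only.

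Counted over the 9 members tested, 3 (Ramp2, Flt1 and Pecam1) were higher in CD38 pos in all 3 pairs, against 13.2% of all tested genes, and 0 were lower in all 3, against 11.3%. In 2 (Ramp2 and Pecam1) the populations did not overlap, with CD38 pos above, against 3.33% of all tested genes; the opposite was seen in 0 members and 3.19% of genes. Apart from Ramp2, 1 member (Flt1) had an unadjusted edgeR p under 0.05 with a higher level in CD38 pos, a class that holds 2.47% of tested genes, and 0 had one with a lower level, against 2.61%. Since Ramp2 chose the set and Flt1 and Kdr passed the filter partly through their CD38 pos libraries, nothing is read from these counts. The median log2 fold change of the 5 shared members was -0.12, beside 0.00 for all genes tested. No median is given as a result for the strictly endothelial members, of which only Plvap passed the filter through both populations alike.

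**Figure D3:**
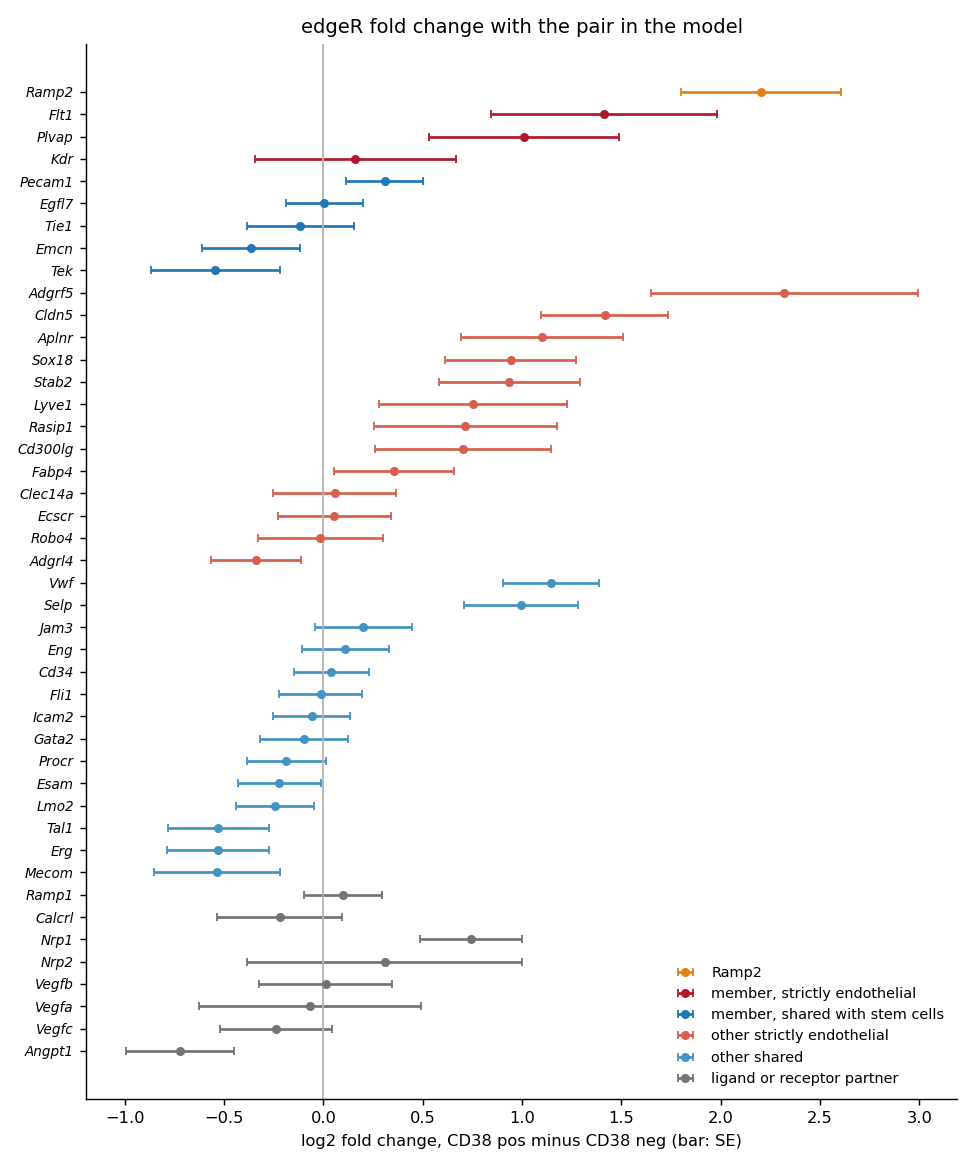
Fitted log2 fold change (CD38 pos minus CD38 neg, horizontal axis) with its SE for each tested member, partner and other vascular gene, coloured by class. Ramp2 stands at 2.20, Cldn5 at 1.41 and Tek at -0.54; none of the genes other than Ramp2, for which no test is given, passed the adjusted threshold.

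The wider vascular pathways were read from lists of genes known to belong to them. Of 8 VEGF ligands and receptors 5 were tested and 0 passed the adjusted threshold. Vegfc, a lymphatic growth factor, was the highest ligand at 5.61 CPM per kb, with 94, 257 and 356 reads in CD38 pos and 179, 311 and 243 in CD38 neg (log2 fold change -0.24). Vegfb and Vegfa had log2 fold changes of 0.01 and -0.07, Pgf had at most 4 reads in a library and Vegfd had 0. The co-receptor Nrp1 had 338, 284 and 278 reads against 276, 146 and 129, higher in CD38 pos in each pair (log2 fold change 0.74, SE 0.26, adjusted p = 0.925 in edgeR). Nrp2 was at 0.31 (SE 0.69), and the lymphatic and sinusoidal receptor gene Flt4, not tested, had 9, 19 and 6 reads against 2, 5 and 3.

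Of the angiopoietin system, Angpt1, the ligand that activates Tek, was at 66.4 CPM per kb, above Tek itself. It had 3420, 3089 and 7937 reads in CD38 pos and 5714, 9312 and 6554 in CD38 neg libraries (log2 fold change -0.72, SE 0.27, adjusted p = 0.925 in edgeR). Ligand and receptor shared their signs: both were lower in CD38 pos in pairs 1 and 2 and higher in pair 3. Angpt2, the endothelial antagonist, had 10, 4 and 12 reads against 15, 4 and 0, and Angpt4 had at most 3. Ptprb, the endothelial phosphatase that restrains Tek, had 10, 6 and 24 reads in CD38 pos and 0, 2 and 1 in CD38 neg libraries.

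A list of 20 other genes, classed as strictly endothelial from general knowledge, was set beside the members. Whether stem cells or other marrow cells also express some of them was not tested. Of these, 13 were tested, 11 with a positive and 2 with a negative log2 fold change, a median of 0.71. Among all tested genes 50.1% were positive. In the list 0 passed the adjusted threshold. An unadjusted edgeR p under 0.05 was seen in 5, all higher in CD38 pos (2.47% of all tested genes), and 6 were higher in all 3 pairs (13.2% of all tested genes). Without Adgrf5, which passed the filter through its CD38 pos libraries, these were 4 and 5 of 12 genes. The list was chosen with earlier results of these data known, so nothing is read from these counts. The 4 with the smallest p-values were Cldn5, Adgrf5, Sox18 and Aplnr. Cldn5, a tight junction protein, had 122, 181 and 334 reads in CD38 pos and 24, 84 and 155 in CD38 neg libraries (log2 fold change 1.41, SE 0.32, adjusted p = 0.451 in edgeR). Adgrf5, an adhesion receptor, had 32, 13 and 36 against 7, 0 and 11 reads (log2 fold change 2.32, SE 0.67, adjusted p = 0.888 in edgeR) and, like Flt1, passed the filter with 1 CD38 neg library. Sox18, an endothelial transcription factor, had 102, 233 and 283 against 97, 122 and 75 (log2 fold change 0.94), and Aplnr, the apelin receptor, 70, 80 and 40 against 38, 23 and 24 (log2 fold change 1.10).

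The other 7 genes of this list were under the filter, with 25 reads at most in a library. Together they had 146 reads in CD38 pos and 45 in CD38 neg libraries, and 3 of them had more reads in CD38 pos in all 3 pairs: Mmrn2, Sox7 and Gpihbp1, named after their values were seen. The rest of the 7 did not keep 1 direction over the pairs. No share over all genes under the filter is given, so nothing is read from this count. Mmrn2 had 9, 25 and 21 reads against 3, 0 and 0. The levels go against the name of the list for part of it: Adgrl4 (75.4 CPM per kb), Cldn5 (6.06), Sox18 (5.35) and Ecscr (5.29) were above the shared member Emcn (4.31). All 20 genes summed to 294, 361 and 508 CPM in CD38 pos and 354, 578 and 398 CPM in CD38 neg libraries, lower in CD38 pos in pairs 1 and 2 and higher in pair 3. Adgrl4, with a log2 fold change of -0.34, made up most of that sum. Without it, a choice made after its values were seen, the other 19 genes summed to 66.8, 77.3 and 102 CPM in CD38 pos and 49.2, 64.4 and 60.1 CPM in CD38 neg libraries, higher in CD38 pos in each pair. The direction of the sum in pairs 1 and 2 thus rests on that 1 gene. The part of endothelial cells in the Ramp2 difference was not tested.

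**Figure D4:**
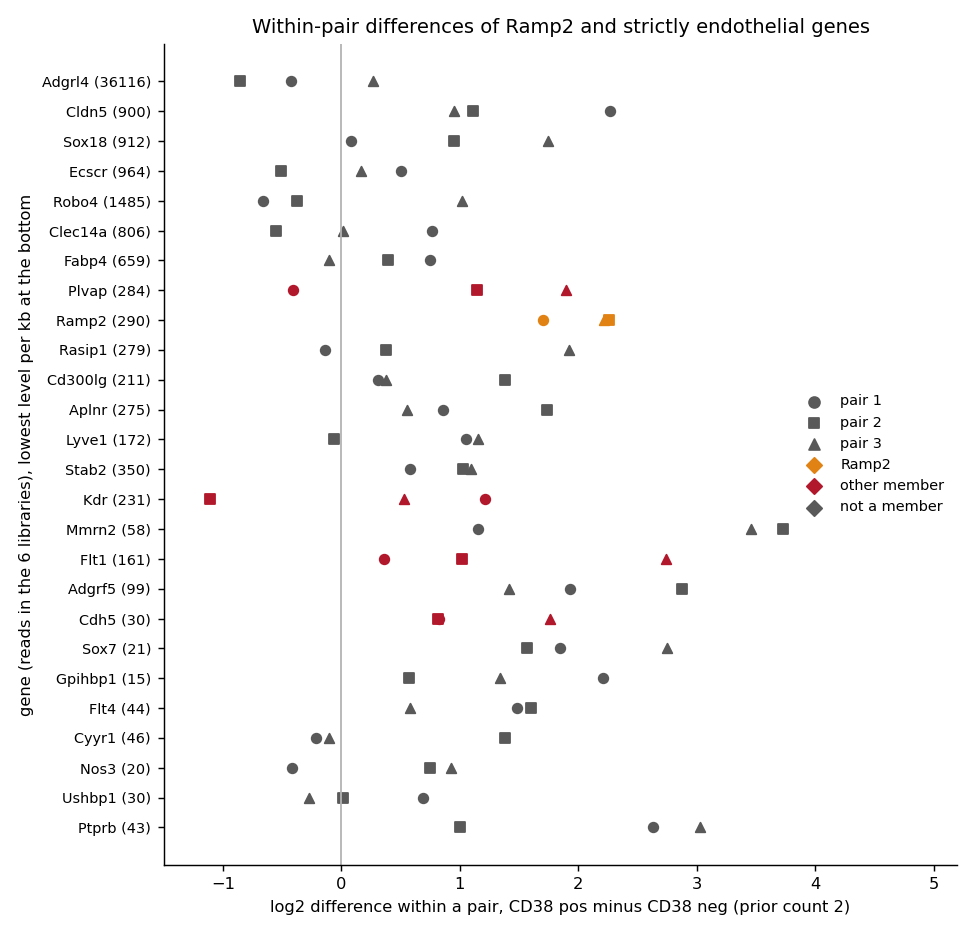
Log2 difference within each pair (horizontal axis, prior count 2) for Ramp2, the strictly endothelial members and other endothelial genes with at least 10 reads in all, ordered by level per kb; total reads are in brackets and shapes mark pairs. The 3 points of Ramp2 lie between 1.71 and 2.26, while those of Kdr and Plvap fall on both sides of 0; differences of genes with few reads are shrunk by the prior count.

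In a list of 14 further genes shared by endothelium and stem cells, all 14 were tested and 0 passed the adjusted threshold. Of these, 5 had a positive and 9 a negative log2 fold change (median -0.08), beside 50.1% positive among all tested genes. Vwf, the clotting factor carried by endothelium, platelets and platelet-biased stem cells, had 469, 770 and 1086 reads in CD38 pos and 266, 438 and 286 in CD38 neg libraries (log2 fold change 1.15, SE 0.24, adjusted p = 0.293 in edgeR). Selp, the adhesion receptor P-selectin, was at 0.99 (SE 0.29). The transcription factor genes Tal1 and Erg were lower in CD38 pos in all 3 pairs, both at -0.53 (SE 0.25 and 0.26). Of the 14 genes, 2 were higher in all 3 pairs and 2 lower, against 13.2% and 11.3% of all tested genes. None of these 4 adjusted p-values was under 0.05, the lowest being that of Vwf.

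Markers of other marrow cells were set beside these values. The 10 stromal genes summed to 177, 19.99 and 139 CPM in CD38 pos and 126, 34.1 and 36.6 CPM in CD38 neg libraries, higher in CD38 pos in pairs 1 and 3 and lower in pair 2. Most of that sum was the chemokine gene Cxcl12, at 151 of the 177 CPM in the CD38 pos library of pair 1. Dcn, a matrix proteoglycan gene of the same list, was under the filter and is named after its values were seen. It had 18, 9 and 27 reads in CD38 pos and 3, 2 and 8 in CD38 neg libraries, without overlap in CPM. Col1a1, of the same list, went the other way without overlap, with 21, 19 and 15 against 35, 27 and 25 reads. Its log2 fold change was -0.69 (SE 0.46, adjusted p = 0.929 in edgeR). In 9 macrophage genes the sums were 495, 738 and 599 against 479, 349 and 516 CPM. Of the 9, 5 were higher in CD38 pos in all 3 pairs, against 13.2% of all tested genes. This list too was chosen with earlier results known, so nothing is read from its count. The macrophage genes with the smallest p-values were Cd5l (log2 fold change 0.74, adjusted p = 0.893 in edgeR) and Mertk (0.91, adjusted p = 0.925 in edgeR). The 7 erythroid genes summed to 2249 to 8142 against 3070 to 6605 CPM, and the 8 B and plasma cell genes to 313 to 1012 against 1163 to 3511 CPM. The immunoglobulin gene Igha, of the last list, passed the adjusted threshold (log2 fold change -4.40, adjusted p = 0.00245 in edgeR). The part of these cells in the members' differences was not tested.

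The genes whose profile over the 6 libraries was nearest to that of Ramp2 were sought among 13554 tested genes with a mean of at least 1 CPM, by the root mean square distance of centred log2 CPM. The 5 nearest were Clu (0.34), Pgr (0.50), Htra3 (0.53), Vwf (0.53) and Tnfrsf25 (0.54). Clu, a secreted chaperone, had 626, 1022 and 1202 reads in CD38 pos and 250, 366 and 290 in CD38 neg libraries. Of the members, Plvap was nearest at 0.78, rank 83, and Pecam1 followed at 0.96, rank 696. Tek was farthest at 1.42, rank 12349. The profile of Ramp2 holds the difference that chose the set, so genes near it are higher in CD38 pos by construction. Nothing about the populations is read from this order or these ranks. With 6 libraries such distances describe these samples only.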

How the data were processed

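The authors deposited raw counts per Ensembl gene, 1 table for each library. Per the submitters' processing notes, cutadapt, STAR and HTSeq 0.6.1p1 and the build GRCm38 (mm10) were used; annotation release, strand setting and the handling of shared exons are not given in the sources used here. Symbols matched 49326 of 49585 identifiers; positions and exon lengths (union of exons) came from GENCODE M21 on GRCm38.

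Genes passing edgeR's filterByExpr (14785) were tested in R 4.3.3 with edgeR 4.0.16 (TMM, quasi-likelihood F-test, model of pair plus population). Log2 fold changes are CD38 pos minus CD38 neg, SEs come from the F statistic, and p-values were Benjamini-Hochberg adjusted over all tested genes, with a threshold of 0.05. For differences within a pair, 2 was the prior count added before taking log2 of CPM. The pairs are those of the series' design text; deviations of paired libraries correlated at 0.34, 0.12 and 0.24. The test was tried on simulated data first.

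Total counts were 16771180 to 18558610 per library; 3 reads, the level that 0 reads allows, cover counting error only. Members, lists and named genes were chosen with earlier results of these data known. Named were all members, their ligand and receptor partners, at most 4 genes of each other list by smallest p, and the 5 profiles nearest to Ramp2; Mmrn2, Sox7, Gpihbp1, Adgrl4, Ecscr, Dcn and Procr fall outside this rule and were named after their values were seen; lists of neutrophil, stromal, macrophage, erythroid and B and plasma cell genes were summed, and 1 further list is not reported here. Alternatives were no replicate block, DESeq2 1.42.0, DESeq2 size factors, unscaled totals, no filter, a mean of at least 10 counts, and leaving out each pair.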

Additional observations from a re-analysis of the deposited data

How the results depend on the processing

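The log2 fold change of Ramp2 kept its sign under all 9 alternatives, from 2.10 to 2.35, and without the replicate block it was 2.25. Of the tested members other than Ramp2, for which no test is given, none passed the threshold under any of them. Flt1, Plvap, Tek, Pecam1 and Emcn kept their direction under all 9, Flt1 from 0.71 to 2.11, Plvap from 0.51 to 1.56, Tek from -1.11 to -0.01, Pecam1 from 0.21 to 0.41 and Emcn from -0.56 to -0.08. Kdr turned to -0.0014 without the replicate block, which changed no other direction and no member's call. Leaving out a pair gave values between -0.2917 and 0.865 for Kdr, -0.5898 and 0.177 for Tie1, and -0.0779 and 0.1081 for Egfl7, which was at -0.0129 with unscaled totals; the cause was not tested. Of all genes, 2 passed with the block, 0 without it (418 at an unadjusted p under 0.05), 0 with unscaled totals (596), 7 with DESeq2 size factors, 11 with DESeq2, 13 with a mean of at least 10 counts, 80 with no filter (26504 genes tested), and between 2 and 41 with 1 pair removed (41 without pair 2, 12 without pair 3). At this depth 0 reads allows a level of up to 3 reads, 0.165 to 0.183 CPM, so differences below that level cannot be seen. The peptide ligands were at or under it in all libraries. Differences above it were not thereby detectable between populations.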
